A study of Mus musculus with 6 samples.

Results

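The interleukin 1 family is a group of cytokines that start and shape inflammation in epithelia, and 9 of its genes were read here in cultured mouse epidermal keratinocytes with and without the transcription factors Ovol1 and Ovol2. The members were taken by gene symbol: the IL-36 agonists Il1f6, Il1f8 and Il1f9 (now named Il36a, Il36b and Il36g), the IL-36 receptor antagonist Il1f5 (Il36rn), the IL-1 agonists Il1a and Il1b, the IL-1 receptor antagonist Il1rn, and Il18 and Il33. All 9 were on the array, each with 1 probe set, among 19938 named genes.

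Cytokines of this family bind a receptor chain, which then recruits an accessory chain and signals through the adaptor Myd88 and Irak kinases to NF-kB. Antagonists of the family occupy the same receptors without recruiting the accessory chain. Keratinocytes store IL-1 alpha and IL-33 and release them on injury, and IL-36 cytokines made in the upper epidermis are best known for their part in psoriasis-like skin inflammation.

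Keratinocytes were isolated from the skin of C57BL/6 embryos of age E18.5, all labelled female, and kept in culture for 2 to 5 days without added calcium. RNA was hybridised to 6 Affymetrix arrays, 2 per genotype, with 2 mice per array. Control mice were Ovol2flox/+; Ovol1+/- or Ovol2flox/+;K14-Cre, so controls carried 1 null Ovol1 allele or a Cre with 1 floxed Ovol2 allele. Which control genotype lies behind which control array is not given. The arrays labelled Ovol1 KO came from Ovol1-/- mice. The Ovol1/2 DKO arrays came from Ovol2flox/-;K14-Cre; Ovol1-/- mice, which lack Ovol1 in every cell, carry 1 Ovol2 null allele in every cell and lose the other Ovol2 allele where the keratin 14 promoter, active in basal keratinocytes, drives Cre. Titles give the arrays of a group as biological replicates. The limma p-values rest on the spread between replicates pooled over every group and moderated across all genes, and measure no other variation. In these bulk samples, fewer cells of a type and less RNA per cell cannot be told apart.

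Some libraries went against their labels. Ovol1 read 9.64 and 9.95 on the control arrays, 10.75 and 9.80 on those labelled Ovol1 KO, and 5.96 and 6.22 on the Ovol1/2 DKO arrays, so Ovol1 was low in Ovol1/2 DKO, as its label says, but not in the arrays labelled Ovol1 KO, and every value from the arrays labelled Ovol1 KO rests on a label that Ovol1 did not bear out. These values are log2(intensity + 16), the scale used throughout. Ovol2 ranged from 6.97 to 8.38, and its Ovol1/2 DKO values of 7.63 and 7.50 lay within the control range and below both arrays labelled Ovol1 KO. Where its probes lie relative to the deleted part is not known here. Xist, expressed from the inactive X chromosome of female cells, was dim on the first replicate of control (4.43) and of the group labelled Ovol1 KO (4.54), against 10.99 to 11.42 on the other arrays, although all carry a female label. Eif2s3y, a Y-linked gene, read 13.81 on that first replicate labelled Ovol1 KO and 4.80 to 5.14 on the other arrays, including the Xist-dim control array. Arrays had median intensities between 103.3 and 109.8. A level of 6.20, the highest array median of the probe sets without a gene name, is called near background below. Krt5, Krt14, Trp63 and the other keratinocyte markers, 12 in all, were above that level on every array, with a mean of 11.33 to 11.92 per array.

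Against control, the Ovol1/2 DKO arrays were lower for all 9 cytokines, and 3 of them, Il1f6, Il1f9 and Il1a, fell by the test (limma adjusted p under 0.05). Across all genes, 1.40% were called lower in this comparison and 2.02% in either direction. At an unadjusted p under 0.05 the count was 5 of 9 members, against 10.4% of all genes. The median log2 difference was -2.81 over the 9 members, against 0.03 over all genes. For 8 of the 9 members both Ovol1/2 DKO arrays lay below both control arrays, as did 18.1% of all genes, and Il18 was the exception. All 9 differences stayed negative under quantile normalization and median centring, and 8 of 9 were negative without control replicate 2 or with the first Ovol1/2 DKO array left out. The count of 3 was 1 under quantile normalization and with a pseudocount of 64. It was 2 with replicate number as a block and with only the compared groups fitted. Median centring, a pseudocount of 1, an intensity trend and dim genes left out each gave 4. It was also lower without control replicate 2, either Ovol1/2 DKO array or either array labelled Ovol1 KO. With both Xist-dim arrays left out it was higher, as was the count over all genes. These last settings leave 1 array in a group.

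**Figure D1:**
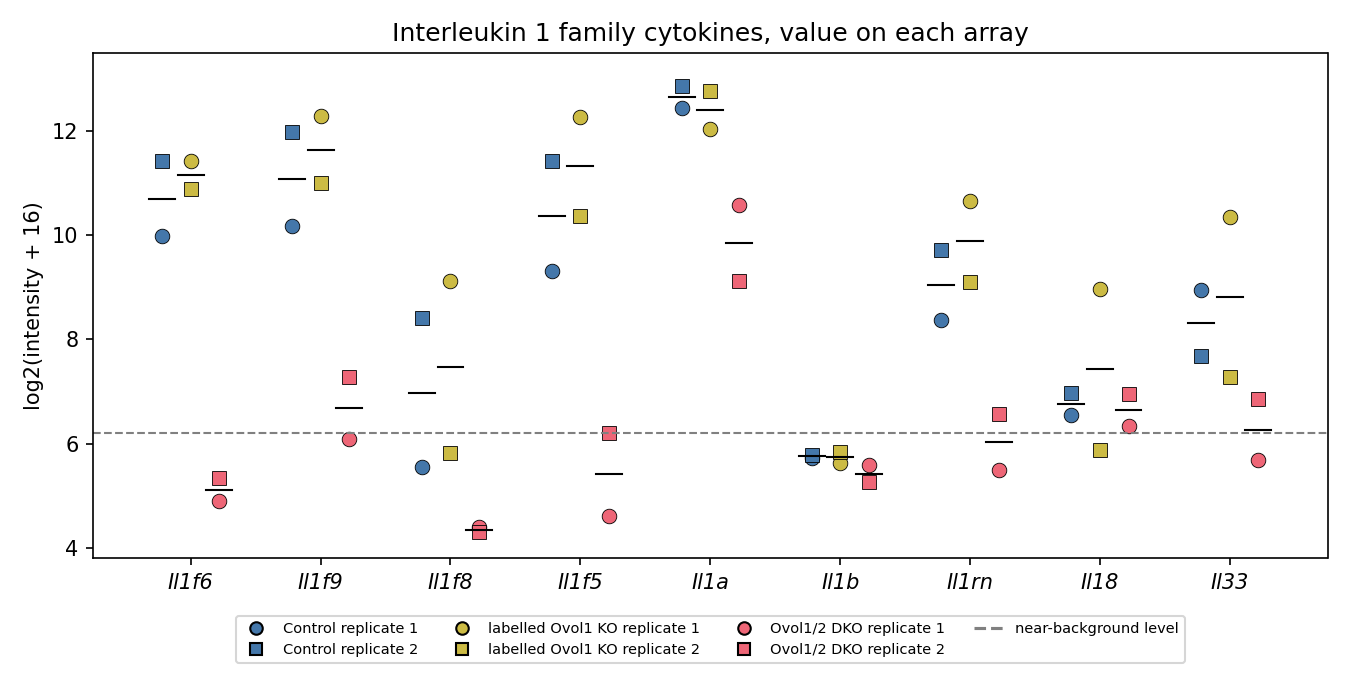
Value of each cytokine on each of the 6 arrays as log2(intensity + 16), with circles for replicate 1, squares for replicate 2, a short black line at each group mean and a dashed line at the near-background level of 6.20. The Ovol1/2 DKO points of Il1f6 sit at 4.90 and 5.33 and the control points at 9.98 and 11.43, while Il1b lies below the dashed line on all 6 arrays.

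Among the IL-36 agonists, Il1f6 gave the widest gap. It read 9.98 and 11.43 on the control arrays, 11.42 and 10.88 on those labelled Ovol1 KO, and 4.90 and 5.33 on the Ovol1/2 DKO arrays. Both Ovol1/2 DKO arrays were near background and the other 4 were bright, with no overlap. The log2 difference from control was -5.59 (SE 0.48, n = 2 per group, limma adjusted p = 0.00653), a 48.2-fold drop on this scale, which understates the change of dim genes. The difference ran from -6.41 with a pseudocount of 1 to -4.38 with a pseudocount of 64, and Il1f6 passed in all 15 alternative settings.

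Il1f9, the IL-36 gamma gene, read 10.18 and 11.98 on the control arrays, 12.28 and 11.00 on those labelled Ovol1 KO, and 6.10 and 7.27 on the Ovol1/2 DKO arrays. One Ovol1/2 DKO array was near background and the other stood somewhat above it, and both lay below the other 4 arrays. Il1f9 fell by 4.40 on the log2 scale against control (SE 0.71, limma adjusted p = 0.0355), or 21.1-fold. The call was lost without control replicate 2 (-3.50, limma adjusted p = 0.101), without either Ovol1/2 DKO array, with quantile normalization and with a pseudocount of 64.

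Il1f8, the IL-36 beta gene, was the most uneven member within control and within the group labelled Ovol1 KO. In Ovol1/2 DKO, where both arrays were near background, its range of 0.09 was the smallest of the 9. It read 5.55 and 8.40 on the control arrays, 9.12 and 5.81 on those labelled Ovol1 KO, and 4.40 and 4.30 on the Ovol1/2 DKO arrays. Control replicate 1 and replicate 2 labelled Ovol1 KO were near background, so only 1 array in each of these groups carried clear signal. Its difference of -2.63 from control (SE 1.21, limma adjusted p = 0.565) did not pass and was of the size of the gap between the control arrays themselves.

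The IL-36 antagonist showed a gap of similar shape. Il1f5 read 9.31 and 11.42 on the control arrays, 12.27 and 10.37 on those labelled Ovol1 KO, and 4.61 and 6.20 on the Ovol1/2 DKO arrays. The first Ovol1/2 DKO array was near background and the second lay at that level. The difference of -4.96 from control (SE 0.91) missed the threshold (limma adjusted p = 0.0534) although both Ovol1/2 DKO arrays lay below the other 4. It was -6.01 without control replicate 1, -3.90 without control replicate 2 (adjusted p = 0.176) and -3.88 with a pseudocount of 64, and Il1f5 passed in 6 of 15 alternative settings. Il1f6 was near background on both Ovol1/2 DKO arrays and Il1f5 on the first, so the balance of antagonist to agonist transcripts is not measured there. Within an array, log2 Il1f5 minus log2 Il1f6 was -0.67 and -0.01 in control and 0.85 and -0.51 in the group labelled Ovol1 KO, which overlapped.

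Il1a, the gene of IL-1 alpha, was bright in every group. It read 12.44 and 12.87 on the control arrays, 12.04 and 12.78 on those labelled Ovol1 KO, and 10.58 and 9.11 on the Ovol1/2 DKO arrays. The Ovol1/2 DKO arrays were below the other 4, yet their signal stayed well above background. The drop from control was 7.01-fold (log2 difference -2.81, SE 0.50, limma adjusted p = 0.0477). This call was close to the threshold: 6 of 15 alternative settings kept it, and it was lost with replicate number as a block (limma adjusted p = 0.0621, and 0.0569 against the arrays labelled Ovol1 KO) and when either control array was left out (adjusted p up to 0.199 over all settings). The difference was -3.54 with the first Ovol1/2 DKO array left out and -2.08 with the second left out.

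Il1b, whose product signals through the same receptor, read 5.73 and 5.78 on the control arrays, 5.63 and 5.84 on those labelled Ovol1 KO, and 5.59 and 5.25 on the Ovol1/2 DKO arrays. All 6 values were near background, so the difference of -0.33 (SE 0.21, limma adjusted p = 0.819) has little to rest on. Il1b was also the only member near background on every array.

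Il1rn, the IL-1 receptor antagonist, read 8.37 and 9.71 on the control arrays, 10.66 and 9.10 on those labelled Ovol1 KO, and 5.50 and 6.57 on the Ovol1/2 DKO arrays. Both Ovol1/2 DKO arrays lay below the other 4, with 1 near background, but the difference of -3.01 from control (SE 0.66) did not pass (limma adjusted p = 0.0955). It passed in 1 of 15 alternative settings, the one without both arrays that lacked Xist signal. The ratio of Il1rn to Il1a, as a log2 difference within an array, was -4.07 and -3.16 in control and -1.38 and -3.68 in the group labelled Ovol1 KO. In Ovol1/2 DKO it was -2.54 on the second array, and the first gives no ratio because Il1rn was near background there. With 2 arrays against 2, no exact permutation test of these ratios can give a two-sided p under 0.333.

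Il18 and Il33 encode cytokines that epithelial cells hold in reserve, IL-18 as a precursor that needs cleavage and IL-33 in the nucleus. Il33 read 8.95 and 7.69 on the control arrays, 10.36 and 7.28 on those labelled Ovol1 KO, and 5.69 and 6.85 on the Ovol1/2 DKO arrays. Its difference of -2.05 from control (SE 0.98, limma adjusted p = 0.599) did not pass, while both Ovol1/2 DKO arrays lay below the other 4. Il18 read 6.55 and 6.98 on the control arrays, 8.97 and 5.88 on those labelled Ovol1 KO, and 6.35 and 6.96 on the Ovol1/2 DKO arrays. Only replicate 1 labelled Ovol1 KO stood out, and the Ovol1/2 DKO values fell within the range of the other arrays. The difference for Il18 was -0.11 (SE 0.89, limma adjusted p = 1), and it turned positive, to 0.20, without Ovol1/2 DKO replicate 1.

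**Figure D2:**
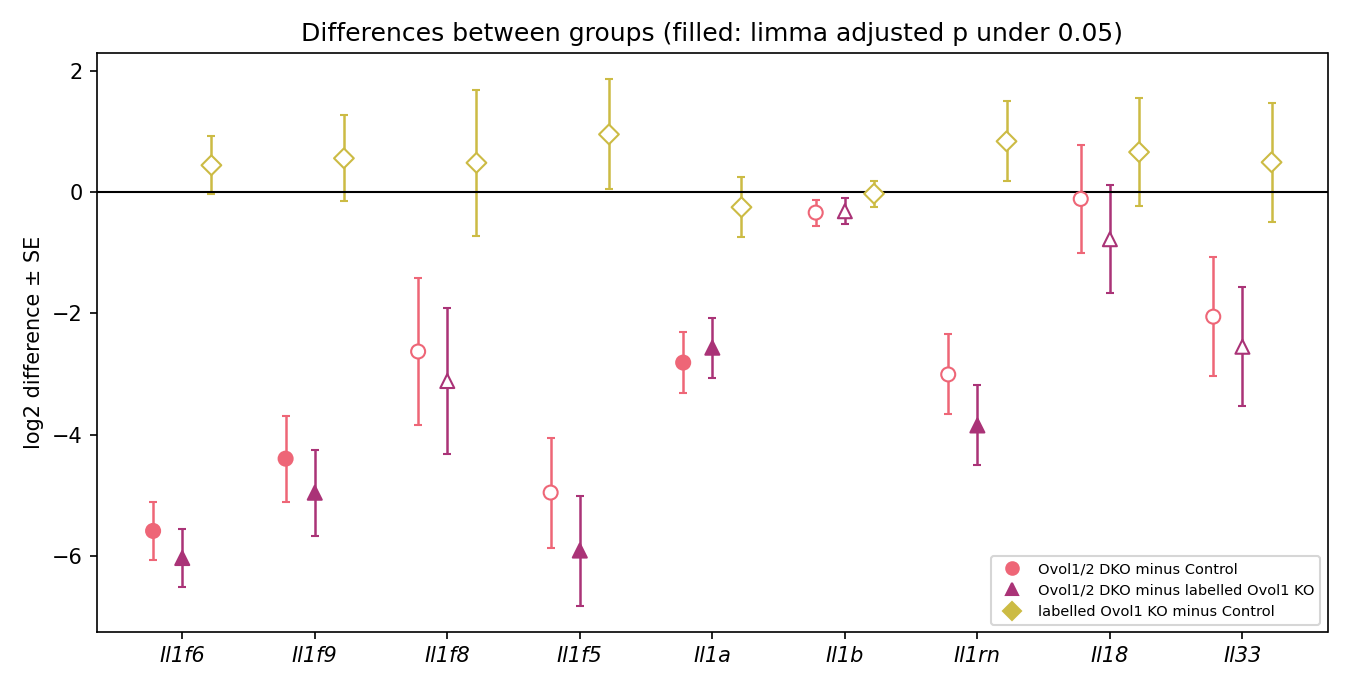
Log2 difference of each cytokine in the 3 comparisons, with bars of 1 standard error of the limma fit and filled symbols for an adjusted p under 0.05. Il1f6, Il1f9 and Il1a are filled in both comparisons of Ovol1/2 DKO, Il1f5 and Il1rn only against the arrays labelled Ovol1 KO, and no symbol of the third comparison is filled.

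Set against the arrays labelled Ovol1 KO, the Ovol1/2 DKO arrays were again lower for all 9 cytokines, and 5 fell: Il1f6, Il1f9, Il1f5, Il1rn and Il1a. Across all genes 1.91% were called lower here and 3.15% in either direction. This comparison uses the same Ovol1/2 DKO arrays as the first, so its values stand beside the earlier ones and are not a second sample of the double knockout. The log2 differences were -6.04 for Il1f6 (SE 0.48, limma adjusted p = 0.00445), -5.91 for Il1f5 (SE 0.91, adjusted p = 0.0228), -4.96 for Il1f9 (SE 0.71, adjusted p = 0.0188), -3.85 for Il1rn (SE 0.66, adjusted p = 0.0326) and -2.57 for Il1a (SE 0.50, adjusted p = 0.0487). Il1f8 (-3.11, SE 1.21), Il33 (-2.55, SE 0.98), Il18 (-0.77, SE 0.89) and Il1b (-0.31, SE 0.21) did not pass. The count of 5 depended on single arrays: it was 1 without replicate 1 labelled Ovol1 KO, 2 with the first Ovol1/2 DKO array left out and 1 with the second left out, with Il1f6 among those that passed each time. Without replicate 2 labelled Ovol1 KO the count was 6: Il18 (-2.32, limma adjusted p = 0.0372) and Il33 (-4.09, adjusted p = 0.0458) passed and Il1a (-2.20, adjusted p = 0.175) did not. Without replicate 1 of that label, Il18 gave 0.77, the opposite sign.

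In the arrays labelled Ovol1 KO against control, no cytokine passed, as no gene did (0% of 19938 by limma; 153 genes, 0.767%, and 0 members had an unadjusted p under 0.05). The groups overlapped for all 9 members, while over all genes 8.83% had both arrays labelled Ovol1 KO above both control arrays and 10.3% had both below. The differences ran from -0.25 for Il1a (SE 0.50) to 0.96 for Il1f5 (SE 0.91), each with a limma adjusted p = 0.999, and 7 of 9 were positive. Without both arrays that lacked Xist signal, which leaves 1 array in each of these groups, 8 of 9 were negative and Il1f8 passed at -2.59 (adjusted p = 0.0336), the opposite direction to its 0.49 over all arrays.

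The spread within groups was large and ran in opposite directions by replicate number. Control replicate 2 was above control replicate 1 for 8 of 9 cytokines, while replicate 1 labelled Ovol1 KO was above replicate 2 for 7 of 9. The mean over the 9 members was 8.56 and 9.58 on the control arrays, 10.31 and 8.77 on those labelled Ovol1 KO, and 5.97 and 6.43 on the Ovol1/2 DKO arrays. The mean of 31 granular and cornified layer genes, which mark late keratinocyte differentiation, moved alongside: 8.59 and 10.03 on the control arrays, 10.22 and 8.75 on those labelled Ovol1 KO, and 6.30 and 7.04 on the Ovol1/2 DKO arrays. The part of keratinocyte differentiation in the cytokine values was not tested.

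Of that granular and cornified list, 4 of 31 measured genes fell in Ovol1/2 DKO against control and none rose, at a median of -2.72, where 1.40% of all genes were called lower. They were the lipid transporter Abca12 (-4.53, SE 0.35, limma adjusted p = 0.00477), the envelope transglutaminase Tgm1 (-5.00, SE 0.41), the envelope scaffold Evpl (-2.25, SE 0.20) and the envelope precursor Sprr1b (-5.33, SE 0.83). Against the arrays labelled Ovol1 KO, 10 of 31 fell, where 1.91% of all genes were called lower. The count against control was higher without both arrays that lacked Xist signal and lower without control replicate 2, settings that leave 1 control array. The 12 keratinocyte markers had a median of 0.24, and 1 of them, the desmosomal cadherin Dsg3, fell (-1.25, SE 0.21, limma adjusted p = 0.0402). None rose by the test. For 2 of the 12, both Ovol1/2 DKO arrays lay below both control arrays, as did 18.1% of all genes. For 8 both lay above, a count whose share over all genes is not given here, so it is not read as a rise. Dst (limma adjusted p = 0.0267) and Trp63 (adjusted p = 0.0465) rose against the arrays labelled Ovol1 KO, and Dsg3 fell (adjusted p = 0.0351). There 3.15% of all genes were called in either direction.

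**Figure D3:**
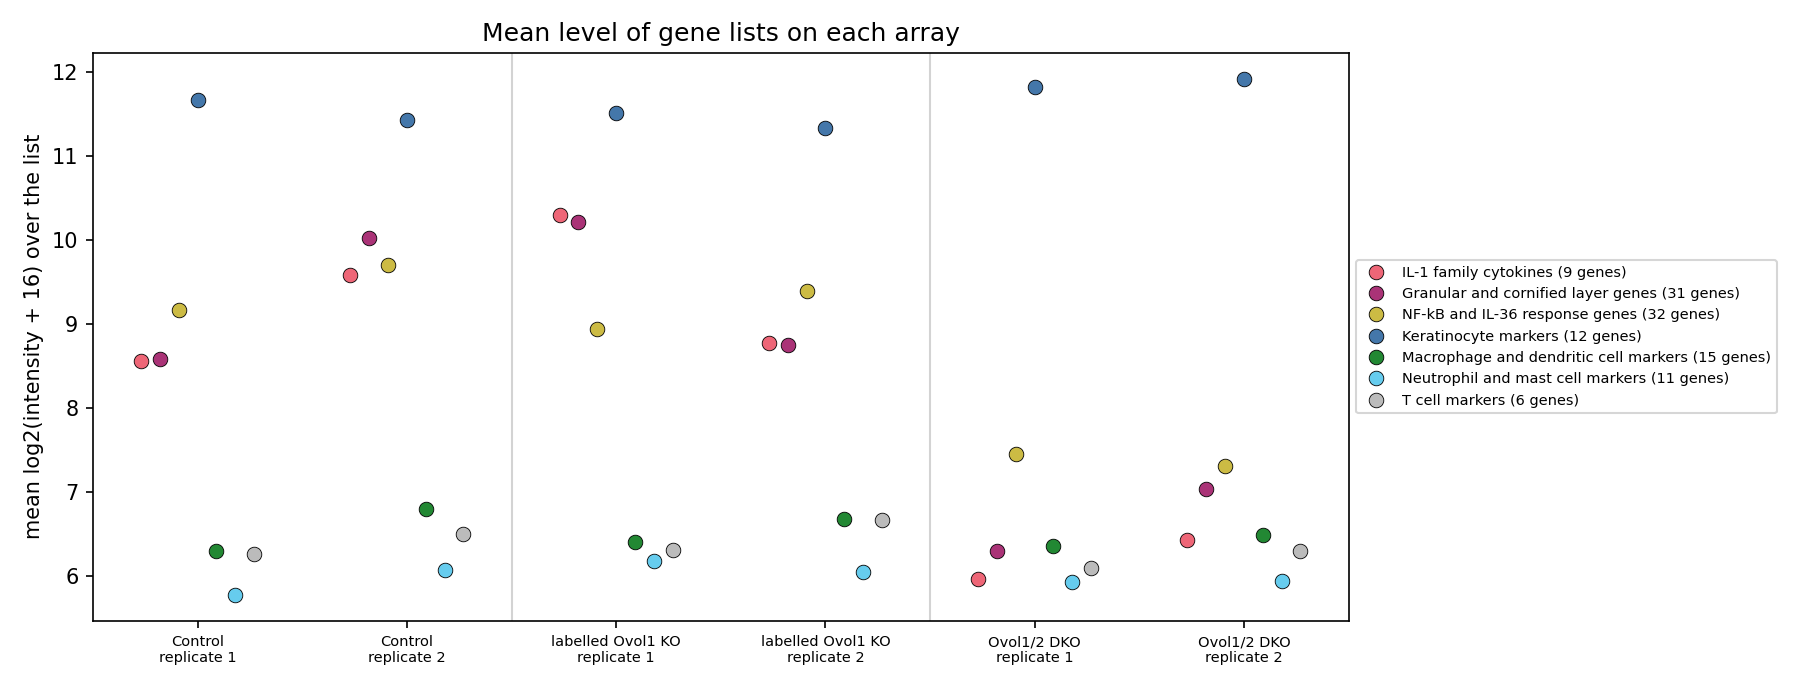
Mean log2(intensity + 16) of 7 gene lists on each array, each point 1 list on 1 array, with points shifted sideways for legibility. The IL-1 family and the granular and cornified list have like means on the control arrays and those labelled Ovol1 KO and are lowest on the Ovol1/2 DKO arrays, keratinocyte markers stay between 11.33 and 11.92, and the leukocyte lists stay between 5.78 and 6.80.

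Genes that leukocytes express were read next, since leukocytes also make IL-1 family cytokines. Of 15 macrophage and dendritic cell markers none passed in Ovol1/2 DKO against control by limma. An unadjusted p under 0.05 was reached by 0 of them, beside 10.4% of all genes. Their mean level was 6.30 and 6.80 on the control arrays, 6.41 and 6.69 on those labelled Ovol1 KO, and 6.35 and 6.49 on the Ovol1/2 DKO arrays. Adgre1, Tyrobp, Cd74, Mrc1 and the Langerhans cell marker Cd207, 5 of the 15, were near background on all 6 arrays. Cd68 and Itgam, named after their values were seen, were above it on every array, at 10.15 to 12.12 and 7.67 to 8.01. They differed from control by -0.30 (SE 0.52) and -0.05 (SE 0.19). Cd14 (6.27 to 6.95) and Fcer1g (6.60 to 7.31), likewise named after their values were seen, were also above the near-background level on every array. Lyz2 read 8.18 in control replicate 2 and 4.77 to 5.52 elsewhere (Ovol1/2 DKO minus control -1.34, SE 0.97, limma adjusted p = 0.899), and Cd14 differed by 0.20 (SE 0.20). Of 11 neutrophil and mast cell markers and 6 T cell markers none passed either. In each list 0 had an unadjusted p under 0.05, beside 10.4% of all genes. Csf3r differed by 0.40 and Cpa3 by 0.28 in the first list, and Cxcr2, named after its values were seen, by -0.95 (SE 0.86), and Cd247 by -0.45 and Cd2 by -0.25 in the second. Their list means lay between 5.78 and 6.18 and between 6.10 and 6.66. Of 12 fibroblast markers Thy1 rose (1.67, SE 0.22, limma adjusted p = 0.0187), where 2.02% of all genes were called in either direction. An unadjusted p under 0.05 was reached by 3 of 12, beside 10.4% of all genes. List means were 6.90 and 7.55 in control and 7.33 and 7.93 in Ovol1/2 DKO. Postn (2.22, SE 0.67) and Fbln1 (0.97, SE 0.25), named after their values were seen, did not pass. These 2 and Thy1 were the 3 of 12 with both Ovol1/2 DKO arrays above both control arrays. The share of all genes with that order is not given here. The median difference over the 12 was 0.07, against 0.03 over all genes, and the lowest was Pdgfra at -0.66 (SE 0.47). No endothelial marker of 9 passed against control (limma), with Kdr at -1.15 (SE 0.22) and Pecam1 at 0.84 (SE 0.19). These 2 had an unadjusted p under 0.05, as did 10.4% of all genes. Against the arrays labelled Ovol1 KO, Pecam1 rose (1.28, SE 0.19, limma adjusted p = 0.0204), where 3.15% of all genes were called in either direction. No melanocyte marker of 9 passed against control (limma), with Tyrp1 at -1.74 (SE 0.49) and Mitf at -0.95 (SE 0.27). An unadjusted p under 0.05 was reached by 3 of 9, beside the same 10.4% of all genes.

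Receptors of the family were read next. Of 9 measured receptor and binding protein genes, Il18r1, the ligand-binding chain for IL-18, fell and none rose, at a median of -0.04. Across all genes 1.40% were called lower. Il18rap, the other chain of the IL-18 receptor, was named after its values were seen and went the other way without passing. It read 6.22 and 6.09 in control and 7.27 and 6.58 in Ovol1/2 DKO (0.77, SE 0.29, limma adjusted p = 0.394). Its difference from the arrays labelled Ovol1 KO was 1.22 (SE 0.29, limma adjusted p = 0.0946). Il18r1 read 7.52 and 8.04 on the control arrays, from 6.97 up to just under the higher control value on those labelled Ovol1 KO, and 5.47 and 5.56 on the Ovol1/2 DKO arrays. Both Ovol1/2 DKO arrays were near background and below the other 4 (log2 difference from control -2.26, SE 0.37, limma adjusted p = 0.0360). The call was lost without control replicate 2 and without either Ovol1/2 DKO array, each of which left no receptor gene passing. Il1rl2, the receptor chain that binds IL-36, was named for its role after its values were seen. It read 9.85 and 9.47 on the control arrays, 10.71 and 9.22 on those labelled Ovol1 KO, and 9.93 and 9.64 on the Ovol1/2 DKO arrays, with groups that overlapped and a difference of 0.12 (limma adjusted p = 1). Il1rap, an accessory chain shared by several receptors of the family, was likewise named after its values were seen. It read 9.44 and 9.65 in control and 9.09 and 9.02 in Ovol1/2 DKO (-0.49, limma adjusted p = 0.524). In the comparison with the arrays labelled Ovol1 KO, Il18r1 was again the only receptor gene that passed (-1.97, SE 0.37, limma adjusted p = 0.0423). There 1.91% of all genes were called lower.

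Downstream of the receptors, 3 of 17 signalling genes had an unadjusted p under 0.05 against control (limma), beside 10.4% of all genes. None passed, at a median of -0.13. The closest was Irak3, an Irak family member that restrains signalling. It read 10.43 and 10.94 on the control arrays, 10.99 and 11.05 on those labelled Ovol1 KO, and 8.56 and 9.39 on the Ovol1/2 DKO arrays. It differed by -1.71 from control (SE 0.32, limma adjusted p = 0.0599) and fell by 2.04 against the arrays labelled Ovol1 KO (SE 0.32, adjusted p = 0.0248). Irak2, a kinase of the same pathway, differed by -1.57 from control (SE 0.41, limma adjusted p = 0.157).

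Of 23 genes of cytokine processing and the inflammasome, the complex that activates Casp1 for the cleavage of IL-1 beta and IL-18, none passed in any of the 3 comparisons. By limma, 4 had an unadjusted p under 0.05 against control, beside 10.4% of all genes, and the median was 0.01. Casp1 itself was near background on every array, as were Nlrp1a, Nlrp1b, Nlrc4, Naip5 and Ctsg. The serine protease Tmprss11d read 6.46 and 8.99 in control and 4.64 and 4.76 in Ovol1/2 DKO (-3.03, SE 0.75, limma adjusted p = 0.140). Gsdmd, the pore-forming gasdermin cleaved by inflammatory caspases, was higher in both Ovol1/2 DKO arrays than in the other 4, at 8.04 and 8.55 against 7.20 to 7.78, but did not pass (0.97, SE 0.25, adjusted p = 0.150).

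Of 32 measured genes known to respond to NF-kB or IL-36, 4 fell, none rose and 28 did not pass in Ovol1/2 DKO against control, at a median of -2.21, where 1.40% of all genes were called lower. For 26 of 32 both Ovol1/2 DKO arrays lay below both control arrays, as did 18.1% of all genes. Il23a, a subunit of IL-23, read 9.09 and 8.92 on the control arrays, 7.75 and 9.15 on those labelled Ovol1 KO, and 5.34 and 5.23 on the Ovol1/2 DKO arrays (-3.72, SE 0.43, limma adjusted p = 0.0138). Ptgs2, an inducible prostaglandin synthase, fell by 1.89 (SE 0.27), the antimicrobial peptide Defb14 fell by 4.36 (SE 0.69) and the neutrophil chemokine Cxcl2 fell by 3.42 (SE 0.56). The count was lower with either Ovol1/2 DKO array left out and higher with both Xist-dim arrays left out, settings that leave 1 array in a group. Against the arrays labelled Ovol1 KO, where 1.91% of all genes were called lower, 4 fell: Il23a, the iron-binding lipocalin Lcn2 (-4.26, SE 0.63), Defb14 and Ptgs2.

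In the mouse genome, 7 of the 9 members lie on chromosome 2 in separate blocks, and their neighbours give a local background. In the RefSeq order of GRCm38.p6, the first block runs Il1f8, Il1f9, Il1f6, Il1f5, Il1f10 and Il1rn, and the second holds Il1a and Il1b. Il18 and Il33 lie on other chromosomes. The tested genes just outside the first block were Nxph2, Spopl, Hnmt and Tbpl2 on one side, with log2 differences from -0.19 to -0.00 in Ovol1/2 DKO against control. On the other side were Psd4, Pax8, Cacna1b and Ehmt1, of which none passed (limma adjusted p from 0.0599 to 1). Psd4, directly beside Il1rn, read 7.50 and 7.52 in control and 6.09 and 5.92 in Ovol1/2 DKO (-1.51, SE 0.29, limma adjusted p = 0.0599). Its groups did not overlap, in contrast to the other 3 on that side, which differed by -0.39 to 0.30. Inside the block, Il1f10, a family cytokine that is not a member here, was near background on every array (-0.40, SE 0.22, adjusted p = 0.702).

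Around Il1a and Il1b, chosen by the same count of genes on each side, none of the 8 neighbours passed (limma adjusted p from 0.183 to 1). Chchd5, Slc20a1, A730036I17Rik and Ckap2l differed by 0.49, -0.74, 0.29 and 0.11, and Il1bos, F830045P16Rik, Sirpa and Pdyn by -0.41, 0.09, 0.99 and -0.12. Il1bos is annotated beside Il1b and was likewise near background.

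**Figure D4:**
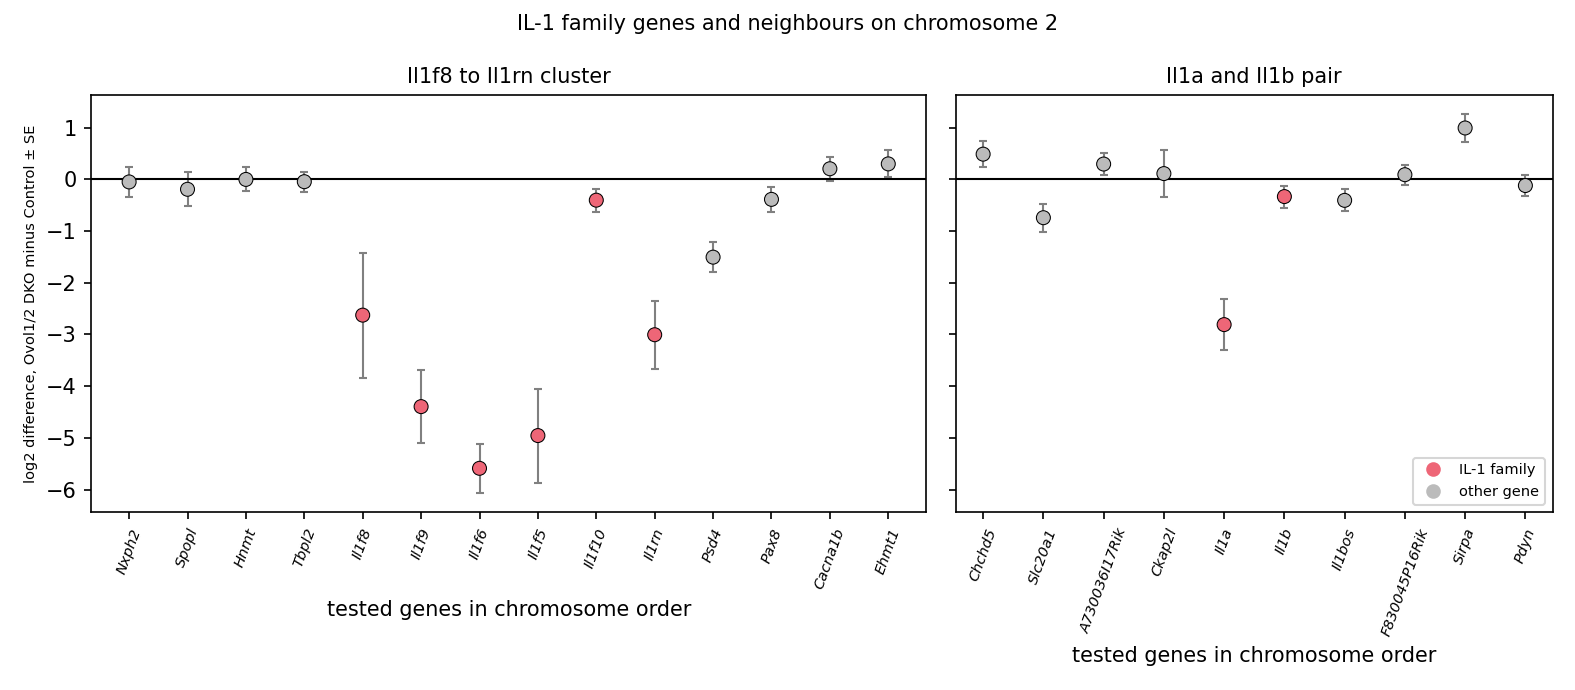
Log2 difference of Ovol1/2 DKO minus control with bars of 1 standard error for tested genes in chromosome order, family genes in red and others in grey. The left panel shows the block from Il1f8 to Il1rn, where Il1f6 is lowest at -5.59 and the 4 genes before the block are between -0.19 and -0.00, and the right panel shows Il1a and Il1b with their neighbours.

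Promoter windows of the members were read from RefSeq with the coordinates of GRCm38.p6 (250 bases before to 50 after an annotated start). Windows were given for 8 of 9 members, 12 windows in all, and none was given for Il1f6. They were searched on both strands for AP-1 (TGANTCA), the Ovol core (CCGTTA), the Zeb E-box (CAGGTG, which reads CACCTG on the other strand), C/EBP (TTNNGNAA) and the NF-kB motif. AP-1 matched in 3 of the 12 windows (Il1f8, Il1rn and Il1a) and in 7.81% of 32851 windows of all genes. The Zeb E-box matched in 1 window, that of Il1f9, against 20.2% of all windows, and C/EBP in 7, against 40.7%, where both downstream Il1rn windows overlap each other and share matches. The Ovol core and the NF-kB motif matched in none, against 2.76% and 4.51% of all windows, which says only that these letters are not in these stretches. A match is a run of letters and not a site in use.

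The 250 bases before the start are shown for Il1f9, Il1rn and Il1a, members that fell in at least 1 comparison and whose stretch holds an AP-1 or Zeb E-box match. Capitals mark every match to the motifs searched. They lie at chr2:24186226-24186475 (plus strand) for Il1f9, chr2:24336610-24336859 (plus strand) for Il1rn and chr2:129309973-129310222 (minus strand) for Il1a, each written 5′ to 3′ along its gene.
Il1f9: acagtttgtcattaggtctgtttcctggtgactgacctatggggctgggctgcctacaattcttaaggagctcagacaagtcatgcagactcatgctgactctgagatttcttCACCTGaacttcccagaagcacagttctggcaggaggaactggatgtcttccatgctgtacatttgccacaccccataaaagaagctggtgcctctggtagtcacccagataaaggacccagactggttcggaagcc
Il1rn: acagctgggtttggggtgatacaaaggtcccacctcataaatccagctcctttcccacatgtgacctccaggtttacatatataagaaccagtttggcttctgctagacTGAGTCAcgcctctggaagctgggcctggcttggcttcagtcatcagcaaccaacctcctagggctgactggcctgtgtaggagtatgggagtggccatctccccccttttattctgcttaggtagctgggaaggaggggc
Il1a: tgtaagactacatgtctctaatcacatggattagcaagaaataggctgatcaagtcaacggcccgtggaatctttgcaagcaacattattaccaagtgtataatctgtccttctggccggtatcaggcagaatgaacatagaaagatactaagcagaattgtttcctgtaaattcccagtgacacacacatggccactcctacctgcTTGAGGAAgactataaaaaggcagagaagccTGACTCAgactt
In the Il1f9 stretch the capitals are the reverse-strand Zeb E-box, which starts at position -137 from the annotated start, and a further match starts at position 8 after it. In Il1rn they are the AP-1 match at position -141. In Il1a they are a C/EBP match at position -43 and an AP-1 match at position -12. An AP-1 match reads the same on both strands and is counted once.

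The genes whose pattern over the 6 arrays was nearest to each member were found by the root mean square difference after centring each gene on its own mean, among 6 members bright enough to compare. For Il1f9, whose own root mean square spread around its mean was 2.33, the nearest were Tmprss13, Scnn1a and Krt6b at 0.21, 0.22 and 0.26. For Il1f6, with a spread of 2.79, they were Slc15a1, Tgm1 and Slc5a1 at 0.39, 0.48 and 0.48. For Il1f5, with a spread of 2.76, they were Pdzk1ip1, Cdsn and Lypd5 at 0.35, 0.37 and 0.41. Il1rn, with a spread of 1.78, was nearest to Vsig10l, Clic3 and Lratd1 at 0.24 to 0.26. Il1a, with a spread of 1.36, was nearest to Ccdc116, Pard6b and Snai3 at 0.28 to 0.39, and Il33, with a spread of 1.50, to Egr2, Sdr16c5 and Barx2 at 0.36 to 0.47. These are descriptions of 6 arrays, and the Tgm1 and Cdsn entries also belong to the granular and cornified list above.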

How the data were processed

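RNA of cultured mouse keratinocytes was hybridised with 1 label to 6 Affymetrix arrays, 2 in each of 3 groups. The deposited table holds the authors' linear intensity for each probe set. The submitters' processing notes name Affymetrix Expression Console 1.1.1 and PLIER 2.0. How the background was corrected, how arrays were scaled and whether values were filtered is not stated there. Of 35556 probe sets, 21789 had 1 gene symbol in the platform annotation, 1621 had several and were not named, and 12146 had none. Symbols were updated by Entrez identifier (91 without a match), and the brightest probe set was used for each of 999 genes with several, leaving 19938 genes. Values were taken as log2(intensity + 16). All 6 arrays entered 1 fit with group means (lmFit and eBayes of limma 3.58.1, run in R 4.3.3, with 3 residual and 3.68 prior degrees of freedom), which gave the 3 comparisons, with Benjamini-Hochberg adjustment over all genes and 0.05 as the threshold. Each SE comes from the moderated variance of limma, with a median of 0.245 over all genes, and 2 arrays per group limit the precision. Exact permutation tests of ratios within an array (scipy 1.17.1) could not pass with 2 arrays per group and support nothing here. The fit was run on simulated data with independent noise between arrays. Deviations by replicate number correlated between groups here, so that run does not show how the test behaves on these arrays. The members and gene lists were chosen with earlier results of these data known. Of the list genes, those that passed were named, up to 4 per list and direction by the smallest p, or up to 2 by the smallest p where none passed. Il1r1, Il1rl1, Irak4, Chuk and Nfkb1 of the lists were not analysed here. Nearest patterns took the 3 closest genes with an ordinary symbol, for members whose highest group mean reached the median of all genes (7.54). Other settings tried were pseudocounts of 1 and 64, quantile normalization, centring on medians, an intensity trend, removal of dim genes, a block on replicate number, a fit of the compared groups alone, and the removal of each array or of both Xist-dim arrays. The list counts under these alternatives were added after the data were seen.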

Additional observations from a re-analysis of the deposited data

How the results depend on the processing

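With 2 arrays per group, counts depended on single arrays. Against control, 3 cytokines and 403 genes fell or rose over all arrays. Leaving out 1 array at a time gave 1 to 3 cytokines and 99 to 455 genes, a pseudocount of 64 gave 1 and 155, quantile normalization gave 1 cytokine, and leaving out both arrays without Xist signal gave 6 and 1393. Against the arrays labelled Ovol1 KO, 5 cytokines and 628 genes passed. Leaving out 1 array gave 1 to 6 and 135 to 829, a pseudocount of 64 gave 1 and 311, and leaving out both arrays without Xist signal gave 6 and 1502. In the third comparison, of arrays labelled Ovol1 KO with control, leaving out 1 array gave 0 cytokines and 0 to 3 genes. Leaving out both without Xist signal gave 20 genes and 1 cytokine, Il1f8, reversed to -2.59; that setting has 1 residual degree of freedom and lone arrays assumed to vary like the others. The cause of these changes was not tested.

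With replicate number as a block, 2 cytokines and 597 genes passed against control, and 4 and 1022 against the arrays labelled Ovol1 KO. Il1a lost its call in both. Deviations of replicate 1 arrays from their group means correlated across genes at 0.26, 0.49 and 0.19 between groups, but no label ties a number to 1 litter or day, and the reported fit has no block. Each member had 1 probe set, so averaging probe sets changes nothing. With dim genes left out, Il1f8, Il1b and Il18 were not measured.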
